A study of Mus musculus with 23 samples.

Results

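Bdnf, Ntf3, Ntrk2, Ntrk3 and Ngfr, which encode neurotrophins and their receptors, were followed across 23 single-color microarrays from 3 regions of the mouse brain, the frontal cortex (FC), the striatum (ST) and the hypothalamus (HT). They were taken as every transcript identifier of the normalized table that carries 1 of these symbols in the array annotation. This gave 7 transcripts of 31395, read by 10 probes on 28 spots of each array. All 7 passed the filter on low signal, and each was well above background on all 23 arrays. Bdnf, Ntf3 and Ngfr have 1 transcript identifier each on this array, and Ntrk2 and Ntrk3 have 2 each.

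The arrays held RNA of 8 female C57BL/6 mice that were 5 weeks old at the start. The 4 SC mice (L52, L54, L56 and L58) received standard chow for 8 weeks, and the 4 CM mice (O52, O54, O56 and O58) had a free choice of chow and a chocolate mixture. Both groups then went through a test battery of 11 days, in which the SC mice also had limited access to the chocolate mixture, and each mouse gave all 3 regions. Each group of 1 diet and 1 region held 4 arrays, except that of CM FC with 3, where mouse O52 was not used here. Between 36432 and 42261 spots per array were well above background, and precision is limited by how many arrays there are. The sample labels name the HT tissue as thalamic, whereas the extraction notes name hypothalamus. The summed level of a list of 12 hypothalamic genes (log2 of the sum of normalized intensities) was 14.95 to 18.32 on the HT arrays and 11.45 to 13.06 on the FC arrays. The sum of 8 thalamic genes was also higher on the HT arrays (14.42 to 15.76) than on the FC and ST arrays (11.89 to 13.81). The SC ST array of mouse L52 stood apart with a hypothalamic sum of 16.66, against 11.71 to 13.60 on the other ST arrays. The sum of 8 striatal genes was 18.18 to 19.02 on the ST arrays and 14.55 to 16.05 on the HT arrays. On the FC arrays it was 16.45 to 16.69 for L54, L56, L58 and O58 and 14.50 to 14.79 for L52, O54 and O56. In CM mice each region had a slide of its own (ST slide 1, HT slide 2, FC slide 3), so on CM the region and the slide cannot be told apart. A fit with a fixed slide block takes its slide offsets from the SC arrays. A CM call kept in that fit therefore cannot show that the difference is free of the slide. Each region of the SC mice was spread over 2 or 3 slides.

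Neurotrophins are secreted growth factors that are cut from larger precursors and that act on the survival, growth and synaptic strength of neurons. BDNF (Bdnf) binds the receptor tyrosine kinase TrkB (Ntrk2) and neurotrophin-3 (Ntf3) binds TrkC (Ntrk3), whose kinase domains signal through the Ras-MAP kinase, PI3 kinase-Akt and phospholipase C pathways. Both receptor genes also give truncated receptors that lack the kinase domain, and the truncated TrkB is known as the main form of astrocytes. The p75 receptor (Ngfr) has no kinase, binds all neurotrophins and is known in the adult forebrain from cholinergic neurons. In the hypothalamus BDNF and TrkB are known for restraining food intake, and the striatum is known to receive much of its BDNF protein from cortical axons.

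The probes of the Trk receptors are shown because they decide which form each transcript identifier reads. Each is given by the first 30 of its 60 bases, 5′ to 3′ as in the scanner files, in lower case throughout because no single base or motif is singled out.
Ntrk2, full-length transcript NM_001025074 (chr13:59230936-59230995, mm9, plus strand, 10 spots): tcaattgatacctatgtgcacgtgtgcaga
Ntrk2, shared by NM_001025074 and NM_008745 (chr13:58979563-58979622, plus strand, 1 spot): tgcctgctggtgatgttgctcctgctcaag
Ntrk2, truncated transcript NM_008745 (chr13:59038046-59038105, plus strand, 1 spot): ttctcaccagcttaattttagccgatgcat
Ntrk3, full-length transcript NM_008746 (chr7:85392044-85392103, minus strand): ctactagtgaagattggagattttggcatg
Ntrk3, full-length transcript NM_008746 (chr7:85337455-85337514, minus strand): taaggagatctacaaaatcctccatgcttt
Ntrk3, truncated transcript NM_182809 (chr7:85447515-85447574, minus strand): catggcatctatgttgaggatgtcaatgtt
Ntrk3, truncated transcript NM_182809 (chr7:85445908-85445967, minus strand): tgcagcttttcaagttctttcccatgacct
The full-length Ntrk2 value is therefore mostly, but not wholly, specific, since 1 of its 11 spots also reads the truncated transcript. Bdnf (NM_007540) was read by 1 probe at chr2:109566961-109567020 on the plus strand, which matches several Bdnf transcripts. Ntf3 (NM_001164034) was read by 1 probe at chr6:126051431-126051490 on the minus strand, and Ngfr (NM_033217) by 10 spots of 1 probe at chr11:95430211-95430270 on the minus strand. Exons and untranslated regions were not assigned to these positions here.

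To ask where in the brain the genes differed, the regions were compared in pairs, separately on SC and on CM, with limma. The values are log2 normalized intensities, and a difference was called at an adjusted p under 0.05. Fitted differences weight each array (weights 0.222 to 2.74), so they depart somewhat from differences of the plain means. Levels are compared between arrays only, never between probes. Where the arrays of groups are said not to overlap, the share of all transcripts that separate likewise was not computed.

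Bdnf was highest in FC on both diets. On the SC arrays of mice L52, L54, L56 and L58 its log2 level was 10.64, 9.91, 10.78 and 10.22 in FC, 8.69, 9.20, 7.48 and 8.54 in ST, and 8.92, 8.91, 9.42 and 8.98 in HT. On the CM arrays it was 10.74, 10.48 and 10.03 in FC (O54, O56 and O58), and 8.26, 8.76, 9.12 and 6.78 in ST and 9.29, 9.35, 9.04 and 8.62 in HT (O52, O54, O56 and O58). All 7 FC arrays therefore lay above all 8 ST and all 8 HT arrays, whereas ST and HT overlapped. The fall from FC to ST was -2.23 (SE 0.54, adjusted p = 0.00971 by limma) on SC and -2.03 (SE 0.33, adjusted p = 2.89e-05) on CM. The fall from FC to HT was -1.28 (SE 0.46, adjusted p = 0.0309) on SC and -1.34 (SE 0.31, adjusted p = 0.00104) on CM. HT minus ST was 0.96 on SC (95% interval -0.07 to 1.98, adjusted p = 0.185) and 0.70 on CM (0.02 to 1.38, adjusted p = 0.075), and neither was called. Within slides the SC difference between ST and FC was -1.62 on slide 1 (1 ST array against 3 FC arrays) and -2.30 on slide 2 (2 against 1), and between HT and FC it was -1.66 on slide 2 (1 against 1).

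Markers of cortical neurons also differed between regions and between ST arrays. Their summed level was 14.94 to 15.64 on the FC arrays and 11.90 to 12.66 on the HT arrays, and in ST it was 14.35, 15.37, 14.41 and 16.23 for L52, L54, L56 and L58 and 14.51, 14.77, 14.75 and 14.34 for O52, O54, O56 and O58. The CM ST array of O58, which had the lowest Bdnf of all 23 (6.78), also had the highest summed level of choroid plexus genes, 18.33. The 7 cortical genes of the list (8 transcripts) fell from FC to HT in 7 transcripts on SC and 8 on CM, and from FC to ST in 5 and 8. Of all transcripts 20.4% on SC and 28.2% on CM fell from FC to HT, and 7.22% and 30.1% from FC to ST. In such bulk samples fewer cells of a type and less RNA per cell cannot be told apart, and the part of these markers in the Bdnf differences was not tested. Without the SC ST array of L56 the difference between ST and FC on SC was -1.38 and no longer called (adjusted p = 0.134). The call between HT and FC on SC was lost without the SC HT array of L52 (-1.18, adjusted p = 0.052) or of L54 (-1.26, adjusted p = 0.0607) or the SC FC array of L56 (-1.07, adjusted p = 0.114), and HT minus ST was called without the SC ST array of L54 (1.46, adjusted p = 0.0159), and on CM without CM ST O54 (0.89), CM ST O56 (1.07) or CM HT O58 (0.84). With a fixed slide block the adjusted p was 0.02 for ST against FC on SC, 0.287 for HT against FC on SC, and 0.245 and 0.37 for the same comparisons on CM.

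Ntf3, the ligand of TrkC, was lowest in ST. Its log2 level on the SC arrays of L52, L54, L56 and L58 was 7.11, 6.06, 6.90 and 8.80 in FC, 5.401, 5.79, 5.44 and 5.14 in ST, and 7.79, 7.26, 6.38 and 7.85 in HT. On the CM arrays it was 6.74, 6.19 and 5.93 in FC, 5.44, 5.98, 6.54 and 5.24 in ST, and 6.26, 7.45, 7.18 and 6.20 in HT, in the same order of mice as above. The SC ST arrays lay below all SC arrays of the other regions, and the CM regions overlapped. All Ntf3 values were flagged as well above background, but those of ST lay near that limit. Another gene, Gbx1, was not flagged at 4.90 on the CM HT array of O54. With the mouse as a random block, as in all values here unless stated, the only called difference of Ntf3 was HT minus ST on CM, 1.04 (SE 0.39, adjusted p = 0.0271 by limma). It was lost without array weights (0.97, adjusted p = 0.104) and with a random slide block (0.96, 0.142), and also without CM ST O52 (0.82, adjusted p = 0.111), CM ST O58 (0.86, 0.0804), CM HT O54 (0.62, 0.207) or CM HT O56 (0.71, 0.17), or with a fixed slide block (0.95, adjusted p = 0.4).

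With the mouse, which gave all 3 regions except for O52, as a fixed block instead, limma also called Ntf3 for ST minus FC on SC (-1.82, adjusted p = 0.0173), HT minus ST on SC (1.53, 0.0108) and HT minus FC on CM (0.73, 0.0251).

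The SC differences of Ntf3 were larger but did not pass with the random block. HT minus ST was 1.60 on SC (adjusted p = 0.0559) and ST minus FC was -1.81 (adjusted p = 0.0618). HT minus ST was 2.24 within slide 2 (1 array against 2) and 1.999 within slide 3 (3 against 1). The SC call for HT minus ST was gained under 14 of the alternatives, among them without array weights (1.88, adjusted p = 0.00486), which also called ST minus FC on SC (-1.77, 0.0128), and without any of 6 single arrays (SC FC L54 and L58, SC ST L54, SC HT L56, CM HT O54 and CM ST O56), with values of 1.59 to 2.16. ST minus FC on SC was called without SC FC L54 (-2.07), SC ST L54 (-1.88) or SC FC L56 (-2.37).

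Full-length Ntrk2, which encodes the TrkB kinase receptor, fell stepwise from FC through ST to HT. Its mean log2 level was 13.18 ± 0.14 (SD, n = 4) in SC FC, 12.997 ± 0.05 (n = 3) in CM FC, 12.88 ± 0.04 (n = 4) in SC ST, 12.81 ± 0.14 (n = 4) in CM ST, 12.50 ± 0.12 (n = 4) in SC HT and 12.31 ± 0.07 (n = 4) in CM HT. The highest HT array (12.60) lay below the lowest ST array (12.63) and below all FC arrays. On SC and CM the fall was -0.69 (SE 0.10) and -0.67 (SE 0.06) from FC to HT, with limma adjusted p of 1.15e-05 and 2.26e-08. From ST to HT it was -0.34 (SE 0.10) and -0.50 (SE 0.07), with adjusted p of 0.0193 and 2.75e-06, and from FC to ST -0.35 (SE 0.11) and -0.17 (SE 0.07), with adjusted p of 0.039 and 0.0356. The FC and ST arrays overlapped on CM. For ST minus FC the full-length probe was at -0.375 (adjusted p = 0.0532 by limma) on SC and -0.231 (0.0175) on CM. The shared probe was at -0.12 (0.671) on SC and, with the opposite sign, at 0.386 (0.00218) on CM. Within slide 2 the SC values were -0.55 for HT against FC and -0.35 for HT against ST, and within slide 3 HT minus ST was -0.39. ST minus FC was -0.34 within slide 1 and -0.20 within slide 2. The HT against FC differences kept their call with a fixed slide block (-0.64, adjusted p = 0.0146, on SC and -0.66, adjusted p = 0.00601, on CM), and the ST against FC differences did not (adjusted p of 0.092 and 0.532). HT minus ST kept it on CM (-0.41, adjusted p = 0.0291) but not on SC (-0.34, adjusted p = 0.124). The CM values of that fit rest on slide offsets taken from the SC arrays.

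The step between FC and ST was also the less stable one when single arrays were left out. On SC it was lost without SC ST L52 (-0.34, adjusted p = 0.0614), SC ST L56 (-0.31, 0.131), SC ST L58 (-0.36, 0.0518) or SC FC L56 (-0.26, 0.152). On CM it was lost without CM ST O52 (-0.17, adjusted p = 0.0737), CM ST O56 (-0.18, 0.0561), CM ST O58 (-0.13, 0.106), CM FC O54 (-0.14, 0.134) or CM FC O56 (-0.16, 0.101). On CM it was also lost without array weights (adjusted p = 0.131) and with the processed signal scaled to the 75th percentile (-0.08, adjusted p = 0.345).

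Truncated Ntrk2, which encodes TrkB without its kinase, ran the other way and was highest in HT. On the SC arrays of L52, L54, L56 and L58 its log2 level was 10.31, 10.96, 10.67 and 11.01 in FC, 10.86, 10.14, 10.68 and 10.47 in ST, and 11.04, 11.19, 11.57 and 11.43 in HT. On the CM arrays it was 10.59, 10.48 and 10.37 in FC, 10.83, 10.62, 10.92 and 10.92 in ST, and 11.13, 11.38, 11.29 and 11.12 in HT. All 8 HT arrays were above all 15 arrays of the other regions on either diet. HT minus FC was 0.57 (SE 0.16, adjusted p = 0.00557 by limma) on SC and 0.77 (SE 0.10, adjusted p = 2.75e-06) on CM, and HT minus ST was 0.81 (SE 0.17, adjusted p = 0.00114) and 0.43 (SE 0.11, adjusted p = 0.00215). These 4 differences kept their call with a fixed slide block, at 1.02 and 0.73 for HT against FC and 0.92 and 0.88 for HT against ST. The CM values of that fit rest on slide offsets taken from the SC arrays. The call for HT minus FC on SC was lost without SC HT L56 (0.40, adjusted p = 0.0631), and within slide 2 that difference was 1.11 (1 array against 1). HT minus ST on SC was 1.02 within slide 2 and 0.80 within slide 3. ST minus FC was -0.24 on SC (95% interval -0.62 to 0.14, adjusted p = 0.408) and 0.34 on CM (SE 0.11, adjusted p = 0.0133). The CM call was lost without CM FC O58 (0.285, adjusted p = 0.0505), and with a fixed slide block the value was -0.14 (adjusted p = 0.867).

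Astrocyte markers, taken as a sum, were also highest in HT. The summed level of 10 astrocyte genes was 18.61 to 18.83 on the HT arrays, 18.33 to 18.53 on the FC arrays and 17.97 to 18.53 on the ST arrays. Of their 12 transcripts 5 were higher and 2 lower in HT than in FC on SC, and 8 and 3 on CM, with medians of 0.25 and 0.43. Of all transcripts 22.8% were higher and 20.4% lower in this comparison on SC, and 29.5% and 28.2% on CM. Oligodendrocyte markers were also higher in HT than in FC, in 9 of 11 transcripts on either diet (1 lower), with medians of 0.83 on SC and 1.27 on CM. Their summed level was 17.99 to 18.36 on the HT arrays, 17.81 to 18.40 on the ST arrays and 16.66 to 17.73 on the FC arrays. Of 3 transcripts of oligodendrocyte precursors 2 were higher on SC and 3 on CM. The part of these cell types in the truncated Ntrk2 difference was not tested.

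**Figure D1:**
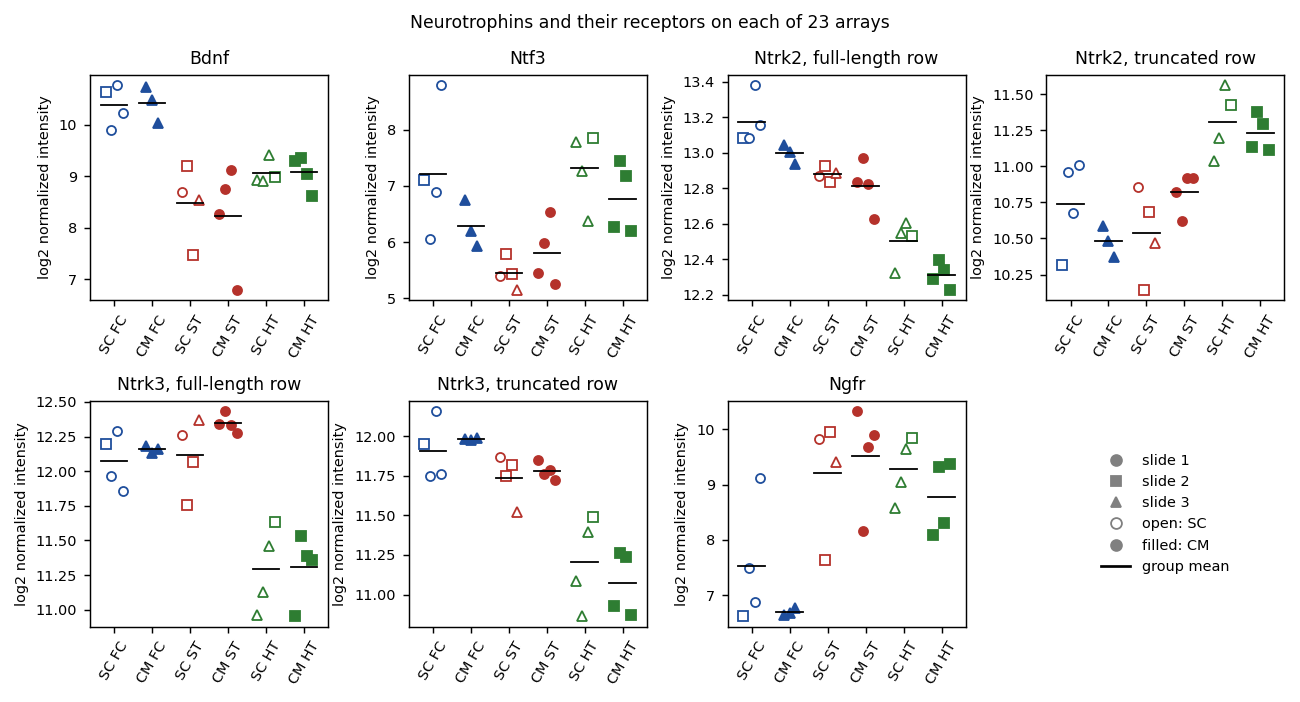
Log2 normalized intensity (y axis, own scale in each panel) of the 7 transcripts on each array by diet and region (x axis). Open symbols are SC mice and filled symbols CM mice, the marker shape gives the slide, and black lines are group means. Full-length Ntrk2 steps down from FC to HT, truncated Ntrk2 is highest on the 8 HT arrays, and the SC FC array of mouse L58 stands above the other FC arrays for Ntf3 (8.80) and Ngfr (9.13).

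Ntrk3 differed from Ntrk2 in that both its forms were lower in HT. Full-length Ntrk3, the TrkC kinase receptor, had a mean log2 level of 12.08 ± 0.20 (SD, n = 4) in SC FC, 12.16 ± 0.03 (n = 3) in CM FC, 12.11 ± 0.27 (n = 4) in SC ST, 12.35 ± 0.07 (n = 4) in CM ST, 11.30 ± 0.31 (n = 4) in SC HT and 11.31 ± 0.25 (n = 4) in CM HT. Truncated Ntrk3 had a mean of 11.91 ± 0.19 in SC FC, 11.98 ± 0.01 in CM FC, 11.74 ± 0.16 in SC ST, 11.78 ± 0.05 in CM ST, 11.21 ± 0.29 in SC HT and 11.08 ± 0.20 in CM HT, over the same arrays. For either form all HT arrays lay below all FC and ST arrays. For full-length Ntrk3 HT minus FC was -0.77 (SE 0.16, adjusted p = 0.00078 by limma) on SC and -0.81 (SE 0.11, adjusted p = 2.56e-06) on CM, and HT minus ST was -0.73 (SE 0.17, adjusted p = 0.00407) and -0.999 (SE 0.11, adjusted p = 3.68e-07). For truncated Ntrk3 the same differences were -0.70 (SE 0.15, adjusted p = 0.000724), -0.86 (SE 0.10, adjusted p = 3.18e-07), -0.55 (SE 0.16, adjusted p = 0.0154) and -0.67 (SE 0.10, adjusted p = 1.7e-05). ST minus FC passed the test for neither form on either diet, with values between -0.19 and 0.19 and adjusted p of 0.122 to 0.923. On CM the ST arrays nonetheless lay all above the FC arrays for the full-length form and all below them for the truncated form, and both differences were called in a fit of only those 7 arrays (adjusted p of 0.0151 and 0.0127). In these 7 arrays region and slide coincide (ST slide 1, FC slide 3). Of all transcripts 60.6% were called for ST minus FC on CM in the fit over all arrays, and the share in the smaller fit is not given here. With the mouse as a fixed block the full-length form was called for ST minus FC on CM too (0.26, adjusted p = 0.0478).

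All 8 Ntrk3 calls held without any single array. Within slide 2 the SC differences of full-length Ntrk3 were -0.56 for HT against FC and -0.28 for HT against ST, and within slide 3 the latter was -1.19. For truncated Ntrk3 they were -0.46, -0.29 and -0.40. With a fixed slide block the 4 CM differences and the SC difference of full-length Ntrk3 between HT and ST (-0.77, adjusted p = 0.0432) kept their call, and the other 3 SC differences did not (adjusted p of 0.0941, 0.261 and 0.354). The CM values of that fit rest on slide offsets taken from the SC arrays. The probes of each form had the same sign in all 4 comparisons, with -0.69 to -1.06 for the full-length probes and -0.49 to -0.99 for the truncated ones.

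Ngfr, the p75 receptor, was lowest in FC. Its log2 level on the SC arrays of L52, L54, L56 and L58 was 6.62, 7.50, 6.88 and 9.13 in FC, 9.82, 7.63, 9.95 and 9.41 in ST, and 8.58, 9.06, 9.64 and 9.85 in HT. On the CM arrays it was 6.65, 6.68 and 6.76 in FC, 10.33, 8.16, 9.67 and 9.90 in ST, and 8.09, 9.32, 8.31 and 9.37 in HT. The 3 CM FC arrays lay below every CM array of ST and HT, and on SC the array of L58 made FC overlap with both. Against FC, Ngfr was higher on CM by 2.87 in ST (SE 0.44, adjusted p = 1.45e-05 by limma) and by 2.095 in HT (SE 0.41, adjusted p = 0.00021), and on SC by 1.71 in HT (SE 0.61, adjusted p = 0.029). ST minus FC on SC was 1.66 and not called (95% interval 0.17 to 3.16, adjusted p = 0.127). HT minus ST was 0.05 on SC and -0.77 on CM (adjusted p of 0.968 and 0.136).

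Single arrays moved the SC differences. Without SC FC L58 ST minus FC on SC was 2.33 (adjusted p = 0.0291), and without SC ST L54, the low ST array, it was 2.28 (adjusted p = 0.0108). The SC call between HT and FC was lost without SC FC L52 (1.53, adjusted p = 0.056), SC FC L56 (1.03, 0.246), SC HT L56 (1.42, 0.121) or SC HT L58 (1.58, 0.0541). HT minus ST on CM was called without CM ST O54 (-1.21, adjusted p = 0.0184). Within slides the SC differences from FC were 1.98 and 2.17 for ST (slides 1 and 2) and 3.23 for HT (slide 2, 1 array against 1), and with a fixed slide block they were 2.38 (adjusted p = 0.0478) for ST and 2.69 (adjusted p = 0.124) for HT. On CM the slide block gave 1.92 and 1.97, with adjusted p of 0.445 and 0.228.

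Genes of cholinergic neurons followed Ngfr over the arrays. The list held 5 genes, Chat, Slc5a7 and Slc18a3 of acetylcholine synthesis and transport and the transcription factors Lhx8 and Gbx1. All 5 were highest of the 7 FC arrays on the SC FC array of L58, where Lhx8 was at 9.01 against 4.19 to 6.71 on the other 6, and Chat at 8.55 against 6.85 to 7.89. Their summed level was 10.99 to 12.44 on the ST arrays, 9.31 to 11.14 on the HT arrays and 8.22 to 10.88 on the FC arrays. From FC to ST 4 of the 5 rose on SC and 5 on CM, beside 7.71% and 30.5% of all transcripts. From FC to HT 2 rose on SC and 4 on CM, beside 22.8% and 29.5% of all. From ST to HT 5 of the 5 fell on CM and 1 on SC, beside 25.9% and 10.8% of all. Ngfr was not called in that comparison on either diet. The part of the cholinergic genes in the Ngfr differences was not tested.

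**Figure D2:**
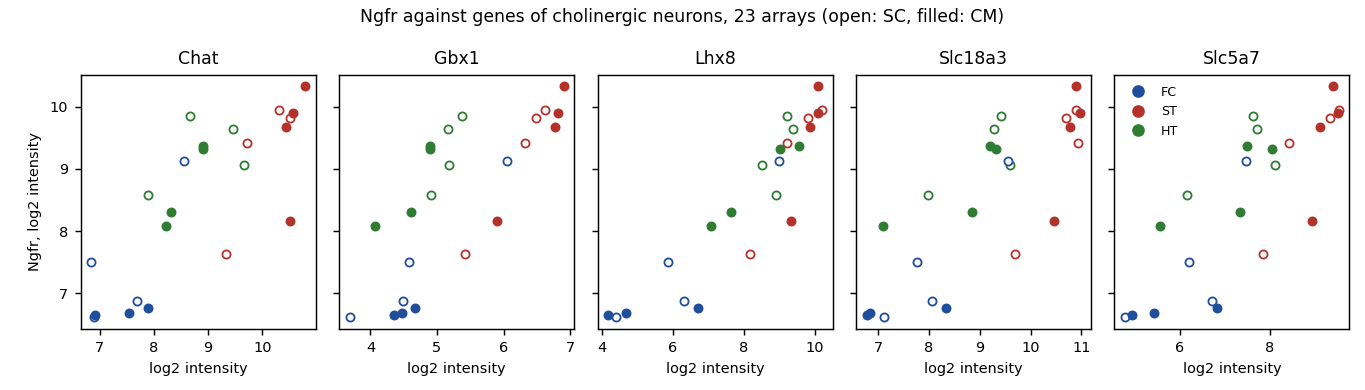
Log2 normalized intensity of Ngfr (y axis) against that of each of 5 genes of cholinergic neurons (x axes), 1 point per array (n = 23), colored by region, open for SC and filled for CM. The FC arrays lie low on both axes, apart from the SC FC array of L58 at an Ngfr level of 9.13, and most ST arrays have higher levels of the 5 genes than the HT arrays.

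Counted over all 7 transcripts, HT against FC gave the most calls. On SC 6 of 7 were called (2 higher and 4 lower), beside 43.2% of all 31395 transcripts (22.8% higher and 20.4% lower). On CM 6 of 7 were called as well (2 higher and 4 lower), beside 57.8% of all (29.5% higher and 28.2% lower). For HT against ST the count was 4 on SC (1 higher, 3 lower), beside 21.5% of all (10.7% higher and 10.8% lower), and 5 on CM (2 higher, 3 lower), beside 56.3% (30.4% and 25.9%). For ST against FC it was 2 on SC, both lower, beside 14.9% (7.71% higher and 7.22% lower), and 4 on CM (2 higher, 2 lower), beside 60.6% (30.5% and 30.1%). The median absolute difference between HT and FC was 0.71 for the 7 transcripts and 0.32 for all on SC, and 0.81 and 0.29 on CM. SC and CM comparisons used different mice and different arrays.

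**Figure D3:**
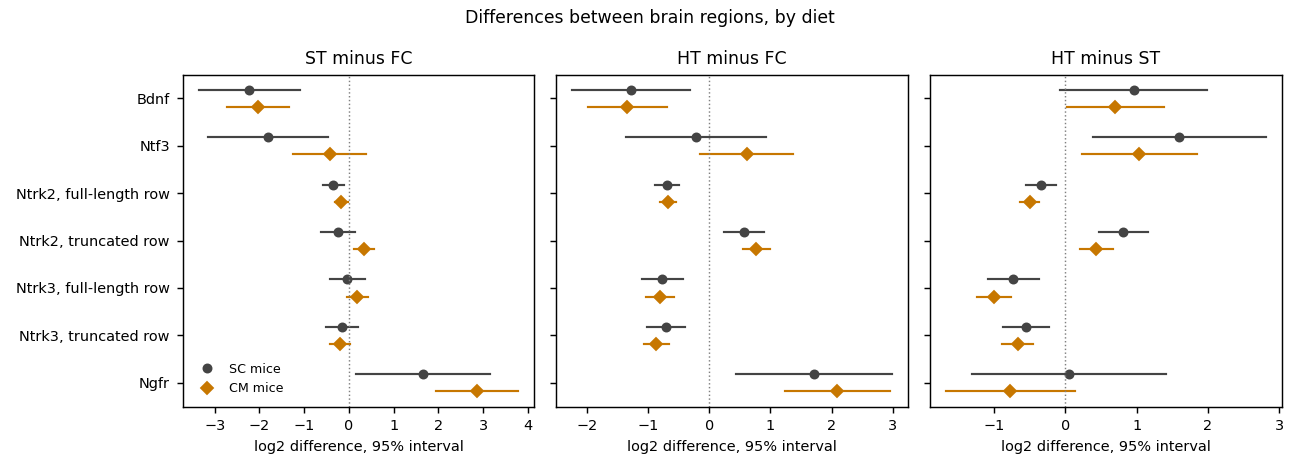
Fitted log2 differences between regions (x axis) of the 7 transcripts (y axis) with 95% intervals from limma, circles for SC mice and diamonds for CM mice. For HT minus FC both forms of Ntrk3, full-length Ntrk2 and Bdnf lie below 0 and truncated Ntrk2 and Ngfr above 0 on both diets.

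Since both forms of a receptor were read on the same array, their difference (truncated minus full-length, log2) was compared within mice, where a shift common to an array cancels. The absolute ratio of probes has no meaning, and only its change does. For Ntrk2 the ratio averaged -2.47 ± 0.25 (SD, n = 7) in FC, -2.17 ± 0.34 (n = 8) in ST and -1.14 ± 0.12 (n = 8) in HT. The lowest HT value (-1.36) was above the highest FC (-2.13) and ST (-1.71) values. From FC to HT the ratio was higher by 1.34 (SD 0.31) in 7 of 7 mice, and from ST to HT by 1.03 (SD 0.31) in 8 of 8 mice. The 2-sided exact sign-flip permutation test gave p = 0.0156 and p = 0.00781, the smallest that 7 and 8 mice allow. Adjusted over the 12 ratio tests both were 0.0938 and thus not under 0.05. With only the probe that is specific to the full-length transcript, chosen after the data were seen, the changes were 1.44 and 1.095. For HT minus FC that probe alone was at -0.78 on SC and -0.80 on CM, whereas the probe shared by both transcripts was higher by 0.20 (adjusted p = 0.243 by limma) and 0.57 (adjusted p = 2.79e-05).

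For Ntrk3 the 2 forms moved together between FC and HT. The ratio was -0.17 ± 0.05 (SD, n = 7) in FC, -0.47 ± 0.26 (n = 8) in ST and -0.16 ± 0.19 (n = 8) in HT. HT minus FC was -0.007 (SD 0.21), with the mean's sign in 4 of 7 mice and p = 0.969 by the exact permutation test. ST minus FC was -0.29 and below 0 in 6 of 7 mice (exact permutation p = 0.0625, adjusted 0.188), and HT minus ST was 0.31 and above 0 in 7 of 8 mice (exact permutation p = 0.0391, adjusted 0.156).

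**Figure D4:**
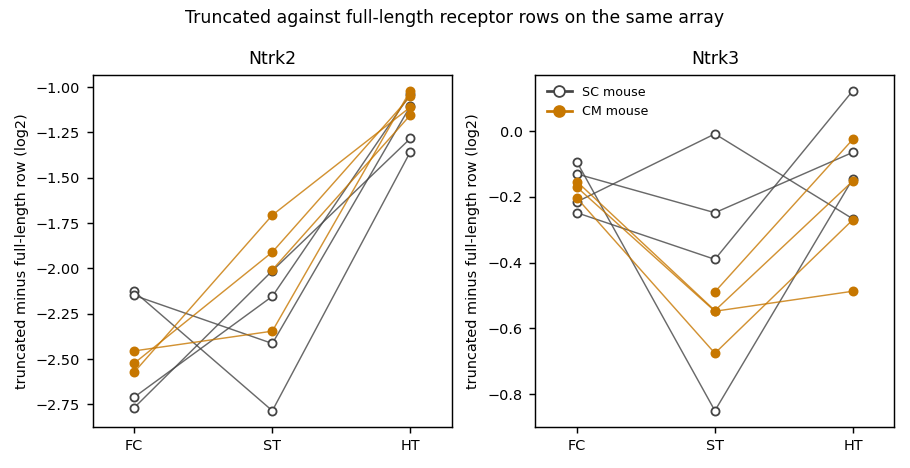
Truncated minus full-length level on the log2 scale (y axis) in FC, ST and HT (x axis) for Ntrk2 and Ntrk3, with a line for each of 8 mice (mouse O52 has no FC point). For Ntrk2 every line ends highest in HT, at -1.36 to -1.02, and for Ntrk3 the lines cross.

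To ask whether the diet changed these genes, CM was compared with SC in each region. None of the 7 transcripts was called in FC or ST (at least 2-fold at an adjusted p under 0.01) or in HT (at least 1.5-fold at an adjusted p under 0.05), beside 2.94%, 0.602% and 0.178% of all transcripts. At an adjusted p under 0.05 alone, a threshold added after seeing the data, the count was also 0 of 7 in each region by limma, beside 28.6%, 9.82% and 0.43% of all. At an unadjusted p under 0.05 there were 2 for FC, 1 for HT and 0 for ST. The share of all transcripts at that threshold is not given here. It is at least the 28.6% (FC), 0.43% (HT) and 9.82% (ST) above, since adjusting only raises p. All of these comparisons share the arrays of the regional ones.

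For Bdnf the diet difference was 0.02 in FC (95% interval -0.85 to 0.89), 0.22 in ST (-0.75 to 1.18) and -0.04 in HT (-0.77 to 0.69). The sign in ST depended on the fit. Without array weights the ST value was -0.25 (SE 0.39), with a fixed slide block -0.05, and within slide 1 -0.46 (4 arrays against 1). The 95% intervals of Bdnf were wide with this number of arrays. Differences inside them are compatible with the data, and a detection limit was not computed. The intervals of the Trk receptors were narrower. Full-length Ntrk2 was -0.22 in FC (-0.40 to -0.04, adjusted p = 0.0626 by limma), with all 3 CM FC arrays (12.94 to 13.04) below all 4 SC FC arrays (13.08 to 13.38), and -0.20 in HT (-0.35 to -0.05, adjusted p = 0.212), where the groups overlapped. No slide held FC arrays of both diets, and 28.6% of all transcripts had an adjusted p under 0.05 in FC. The share that separate in this way was not computed. In ST full-length Ntrk2 was -0.04 (-0.24 to 0.16). Taken by probe in FC, the probe specific to the full-length transcript was at -0.21 (adjusted p = 0.119 by limma). The probe shared with the truncated transcript was at -0.34 (adjusted p = 0.0438). The FC value of full-length Ntrk2 came under an adjusted p of 0.05 without SC FC L58 (-0.29, 0.0321), with the mouse number as a fixed block (-0.23, 0.0292), with a normexp offset of 50 (-0.23, 0.0324) and with the processed signal scaled to the 75th percentile (-0.30, 0.0163). With a fixed slide block it was -0.17 (adjusted p = 0.928). Full-length Ntrk3 was 0.07 in FC (-0.24 to 0.38), 0.30 in ST (-0.04 to 0.64) and 0.03 in HT (-0.23 to 0.29), and truncated Ntrk3 was 0.05 (-0.23 to 0.33), 0.01 (-0.30 to 0.32) and -0.11 (-0.34 to 0.13). The ST value of truncated Ntrk3 averages probes of opposite sign, at 0.27 (adjusted p = 0.221 by limma) and -0.25 (adjusted p = 0.411).

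The widest diet differences were those of Ntf3 and Ngfr in FC. Ntf3 was -0.98 (95% interval -2.01 to 0.05, adjusted p = 0.144 by limma) and Ngfr -0.93 (-2.09 to 0.22, adjusted p = 0.218). No transcript of the marker lists was called for diet in FC at the thresholds above. The list medians for CM minus SC in FC were -0.93 for cholinergic neurons (5 transcripts) and -1.08 for striatum (9 transcripts), and their part in the Ngfr and Ntf3 values was not tested. The 4 SC FC values of either gene include the high array of L58, and the groups overlapped. Ntf3 was 0.40 in ST (-0.74 to 1.54) and -0.16 in HT (-1.02 to 0.71), and Ngfr 0.27 (-1.004 to 1.55) and -0.55 (-1.52 to 0.42). Without array weights the HT value of Ntf3 was -0.545. With a fixed slide block the FC values were -0.30 (SE 0.96) for Ntf3 and 0.12 (SE 1.17) for Ngfr. Within slide 2, where 4 CM HT arrays meet 1 SC HT array, the HT values were -1.08 for Ntf3 and -1.07 for Ngfr, and no slide held FC arrays of both diets.

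Among the 7 transcripts, only truncated Ntrk2 had a called difference between the diet effects of 2 regions, and that call was not stable. CM minus SC was -0.30 in FC (95% interval -0.59 to -0.01, adjusted p = 0.116 by limma), 0.28 in ST (-0.05 to 0.60, adjusted p = 0.27) and -0.10 in HT (-0.35 to 0.14, adjusted p = 0.777). The difference between the ST and FC effects was 0.58 (SE 0.21, adjusted p = 0.0458), the only call among the 7 transcripts, beside 30.1% of all transcripts. With the mouse as a fixed block Ntf3 was called there as well (1.63, adjusted p = 0.032). For HT against FC and HT against ST the count was 0 of 7 by limma at an adjusted and at an unadjusted p under 0.05, beside 20% and 0% of all at the adjusted p. With a fixed slide block the ST against FC value was -0.24 (adjusted p = 1), and within slide 1 the ST diet difference itself was -0.03 (4 arrays against 1). The call was lost without any of 10 arrays (SC FC L54 and L58, SC ST L54 and L58, CM FC O56 and O58, CM ST O52, O56 and O58, and CM HT O56), with values of 0.44 to 0.59 and adjusted p of 0.0502 to 0.111. Without SC ST L56 it was 0.86 (adjusted p = 0.00635), Ngfr was also called (2.39, adjusted p = 0.0415), and the ST diet difference of truncated Ntrk2 had an adjusted p of 0.0315 (0.56, under 2-fold). The ratio of truncated to full-length Ntrk2 was, for CM minus SC, -0.08 (FC), 0.35 (ST) and 0.11 (HT), with exact permutation p of 0.657, 0.143 and 0.286, and that of Ntrk3 was -0.004, -0.19 and -0.15, with exact permutation p of 0.971, 0.4 and 0.314.

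**Figure D5:**
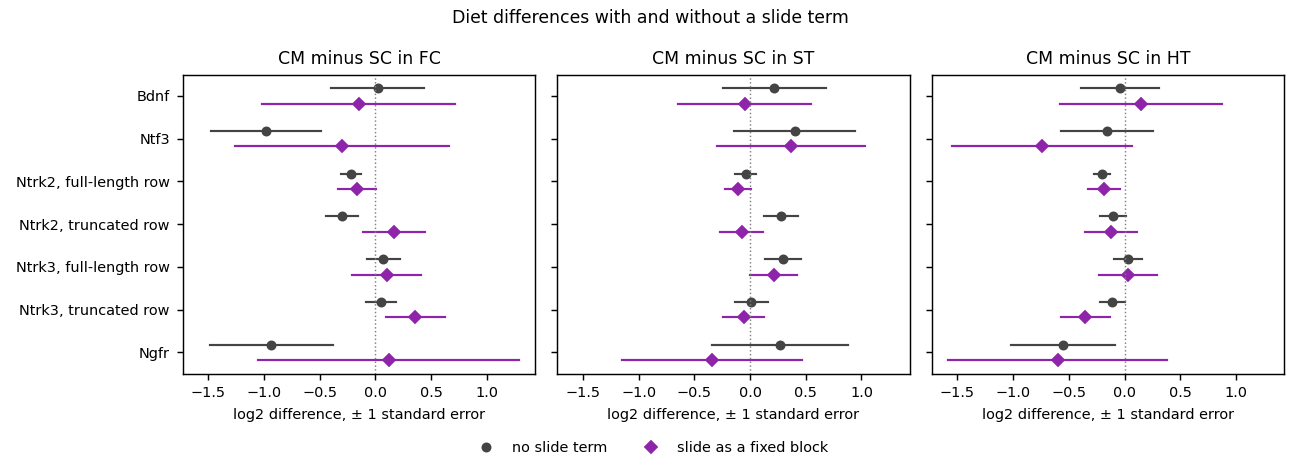
CM minus SC log2 differences (x axis) of the 7 transcripts (y axis) in each region, with bars of 1 standard error, circles for the fit without a slide term and diamonds for the fit with a fixed slide block. The bars widen with the slide term, and the FC value of Ngfr goes from -0.93 to 0.12.

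The other genes of the pathway were taken from lists of 84 genes, 81 of which had 90 transcripts in the table. From FC to HT 12 of the 90 rose and 43 fell on SC, and 23 and 45 on CM, with medians of -0.27 and -0.23 against 0.02 and -0.01 for all transcripts. Of all transcripts 22.8% rose and 20.4% fell in this comparison on SC, and 29.5% and 28.2% on CM. Of the genes that neurotrophins are known to induce, 12 of 15 transcripts fell on SC and 14 on CM, with none higher. Among them Npy, a neuropeptide, was at -2.92 (SE 0.28) on SC and -3.50 (SE 0.19) on CM, and Homer1, a postsynaptic scaffold, at -2.56 (SE 0.20) and -3.23 (SE 0.14). Of the 29 transcripts of the kinase cascades 18 fell and 2 rose on SC, and 16 and 4 on CM, beside the same shares of all transcripts. Camk2a, the alpha subunit of calcium/calmodulin kinase II, was at -2.14 (SE 0.25) and -2.99 (SE 0.17) for HT minus FC, and Camk4, which phosphorylates CREB in the nucleus, at -2.15 (SE 0.22) and -2.39 (SE 0.14) for HT minus ST. All values named here had a limma adjusted p under 0.05 on both diets, as the rule for naming them requires. The 8 transcripts of cortical neuron markers had medians of -3.59 on SC and -4.25 on CM for HT minus FC, and their part in the falls of these genes was not tested.

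Of the 12 transcripts of proneurotrophin processing, 2 rose and 4 fell from FC to HT on SC and 5 and 4 on CM. Of all transcripts 22.8% and 20.4% did so on SC, and 29.5% and 28.2% on CM. Serpini1, which encodes neuroserpin, an inhibitor of the protease tPA, was at -1.56 (SE 0.23) on SC and -1.44 (SE 0.15) on CM for HT minus FC. Pcsk1, a prohormone convertase, was at 1.22 (SE 0.35) and 1.17 (SE 0.24) for HT minus ST. Of the 26 transcripts of receptor adaptors 6 rose and 4 fell from FC to HT on SC, near those shares, and 13 and 6 on CM. Gab1, a docking protein, was at 0.63 (SE 0.19) and 1.40 (SE 0.13) for HT minus FC, and Frs3, which docks to Trk receptors, at 1.175 (SE 0.30) and 2.1 (SE 0.20) for HT minus ST.

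Of the 6 transcripts of the sortilin family of receptors 1 rose and 5 fell from FC to HT on either diet, beside falls of 20.4% of all transcripts on SC and 28.2% on CM. Sorl1, a sorting receptor, was at -1.37 (SE 0.18) on SC and -1.45 (SE 0.12) on CM. Sorcs3, of the same family, was at -0.49 (SE 0.17) and -1.09 (SE 0.12). Of the 2 transcripts of the other ligands 1 rose from FC to HT on SC and none changed on CM. For ST minus FC 3 of the 90 pathway transcripts rose and 10 fell on SC, beside 7.71% and 7.22% of all transcripts. On CM 26 rose and 27 fell, near the 30.5% and 30.1% of all. For HT minus ST 9 rose and 25 fell on SC, beside 10.7% and 10.8% of all, and 16 and 46 on CM, beside 30.4% and 25.9%.

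For diet 4 of the 90 pathway transcripts were called higher in FC, 1 lower in ST and none in HT, at the thresholds given above, beside 2.94%, 0.602% and 0.178% of all transcripts. By limma 23, 6 and 1 had an adjusted p under 0.05 alone, beside 28.6%, 9.82% and 0.43% of all. The counts for FC and ST are near the shares of all transcripts or below them. Lingo1, a partner of p75 in the Nogo receptor complex, was higher on CM by 3.48 in FC (SE 0.44, adjusted p = 4.13e-05) and lower in ST at -2.43 (SE 0.49, adjusted p = 0.00633). In FC, Arc, an immediate early gene of synapses, was higher by 1.45 (SE 0.28, adjusted p = 0.000765), Rps6ka2, a ribosomal S6 kinase, by 1.17 (SE 0.14, adjusted p = 2.68e-05) and Frs3 by 1.16 (SE 0.25, adjusted p = 0.00219). These are contrasts in which diet and slide are confounded, wholly in FC, where no slide held both diets.

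The transcripts whose pattern over the 23 arrays was most like each gene were named by Pearson's r, as a description. The arrays share mice, slides and the differences between regions, and r after removal of the 6 group means is given with it. Bdnf was most like Doc2a (r = 0.958, 0.888 within groups), A730080H06Rik (0.95, 0.833) and Nrn1 (0.945, 0.806). Ngfr was most like Lhx8 (0.921, 0.772), Arhgap6 (0.911, 0.795) and AI606473 (0.909, 0.747). Full-length Ntrk2 was most like Gm13298 (0.955, 0.714), Dab1 (0.954, 0.516) and 2210403K04Rik (0.952, 0.521), and full-length Ntrk3 most like Abi2 (0.943, 0.697), Neto1 (0.942, 0.643) and Trerf1 (0.942, 0.757). Ntf3 had the lowest values, with Sqle (0.86, 0.756), Tcerg1l (0.838, 0.541) and 3010026O09Rik (0.816, 0.572).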

How the data were processed

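RNA of 3 brain regions of 8 mice was hybridized to Agilent SurePrint G3 mouse arrays with 62976 spots, of which 59305 were no controls. The deposited scanner files hold spot and background intensity as written by Feature Extraction 10.7.3.1, and the deposited table holds log2 values that the authors made with limma (normexp, quantile normalization, filter and averaging by transcript identifier). The deposited flags give whether a spot was well above background. These steps were repeated from the median signal intensity (normexp offset 0, probes kept where at least 4 arrays were 1.1 times above the 95th percentile of negative controls), and the result differed from the deposited log2 table by at most 5e-09. Build mm9 is that of the array annotation. 

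Differences were fitted over all 31395 transcripts and 23 arrays with limma 3.58.1 in R 4.3.3, with array weights (statmod 1.5.0) with mice as random blocks (correlation -0.0398), and adjusted by Benjamini-Hochberg. Diet was called at 2-fold and an adjusted p under 0.01 (FC, ST) or 1.5-fold and 0.05 (HT), regions and diet by region at 0.05. Ratios of transcripts were tested within mice by exact sign flips and between diets by exact permutation. Mice are separate animals, and no 2 arrays were identical (correlation within groups 0.978 to 0.997). The fit was tested on simulated data that held no slide or mouse effect. That test therefore says nothing about the confounding of slide with diet or region. Genes outside the 5 were named by rule, as the 2 of each pathway list with the largest mean regional difference called with the same sign on both diets, those called for diet, and the 3 most like each gene by Pearson's r. The genes, lists and tests were chosen with earlier results of these data known. A listed gene that is not reported here was left out of the counts. Alternatives covered the slide and mouse terms, weights, normalization, filters, thresholds, probes and each array left out.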

Additional observations from a re-analysis of the deposited data

Results flagged for a closer look

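The SC HT array of mouse L56 had a Bdnf level of 9.42 (9.422), while the other 3 SC HT arrays lay between 8.91 and 8.98. Its gap was 0.862 of the range of the group, above the 95% critical value of Dixon's test. This was 1 of 45 groups of 4 arrays examined, and chance alone flags about 1 in 20 groups.

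The diet difference of truncated Ntrk2 (NM_008745) differed between ST and FC by 0.58 (0.578) in limma's interaction term, with an adjusted p of 0.0458. CM minus SC was -0.30 in FC and 0.28 in ST. The slide moved with this result, since all CM FC arrays shared slide 3 and all CM ST arrays slide 1, and a fixed slide block gave -0.24. Of all transcripts 30.1% were called in this comparison.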

How the results depend on the processing

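Of the 28 called differences between regions or in diet by region, 19 were called without any single array, and 13 under every other alternative apart from stricter thresholds. All 28 kept their call with the mouse as a fixed block, with REML weights, with the mean spot signal, with an offset of 50 and when probes were filtered by the scanner's background flag. They also did with the deposited table and with no replicate block, which are nearly the main fit. That table differs from the rebuilt values by at most 5e-09, and the mouse correlation was -0.0398. No diet call was made under any alternative at the thresholds given above (0 of 7 in each region). With a fixed slide block, truncated Ntrk2 was reversed for ST minus FC on CM (-0.14) and for diet by region (-0.24). That block left 2 calls for HT against FC on SC, 2 for HT against ST on SC, 0 for ST against FC on CM and 0 for diet by region (ST against FC). As a random block the slide gave 1 call for ST against FC on SC, 2 on CM and 0 for diet by region. Without array weights these counts were 4, 2 and 0. ST against FC on SC gave 1 call with only the arrays compared, with no filter and with 1 value per probe (of 10 probes). Diet by region gave 0 calls with the processed signal and with no filter, and 2 with 1 value per probe. At 2-fold and an adjusted p under 0.01 the regional counts were 1, 0 and 0 on SC and 2, 2 and 0 on CM (ST against FC, HT against FC, HT against ST). Leaving out 1 array at a time, the counts ranged from 0 to 4 for ST against FC on SC, from 4 to 6 for HT against FC and for HT against ST on SC, from 3 to 4, from 6 to 6 and from 4 to 7 on CM, and from 0 to 2 for diet by region. The shares of all transcripts called under these alternatives are not given here, so changed counts cannot be read as particular to the 7 transcripts. The cause of the changed counts was not tested. Ratios near 0 changed sign. The diet ratio of Ntrk2 in FC was 0.002 with the processed signal and ranged from -0.188 to 0.025 when mice were left out (above 0 without L54, 0.025, or L58, 0.018), that of Ntrk3 in FC from -0.029 to 0.022, and the Ntrk3 ratio for HT minus FC from -0.07 to 0.045 (above 0 without L54 or L58, 0.001 each, O54, 0.003, or O58, 0.045).

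Samples of the same number in both diets did not pair (3 of 11 correlations of deviations above 0.1, from -0.321 to 0.136), nor did regions of the same mouse deviate together (3 of 22 above 0.1, from -0.486 to 0.131). With the mouse as a fixed replicate block the counts were 3, 6 and 5 on SC, 5, 7 and 5 on CM and 2 for diet by region, and with the mouse number as a block 0 for diet. The shares of all transcripts in these fits are not given here either. The diet comparison is limited by few arrays per group and by the shared slides. All 7 transcripts were flagged as well above background on every array, though Ntf3 in ST (down to 5.14) lay near that limit.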
